A study of Mus musculus with 6 samples.

Results

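The interferon-induced GTPases described here are 10 mouse genes of 2 families, the guanylate-binding proteins Gbp2, Gbp3, Gbp5 and Gbp7 and the immunity-related GTPases Igtp, Irgm1, Irgm2, Tgtp1, Tgtp2 and Iigp1. They are 10 of the 30768 genes in the deposited table and were taken by gene name. RNA was sequenced from bEnd.3 cells, an established line of mouse brain endothelium, in 6 libraries. In 3 libraries the cells carried a control mimic. In the other 3 they carried a miR-423-5p mimic, a short synthetic copy of this mature microRNA. The labels give no dose, no time and no stimulus, and do not say whether the libraries came from separate cultures. P-values therefore measure the spread between libraries, which may be technical. The 10 genes were selected on results of this same comparison, from the read counts of these libraries. Their fold changes are therefore given as a description, without p-values. The gene lists used below were also written with earlier results of these data known, and many genes named from them were picked by smallest p. The adjusted p-values printed for those genes are a description too.

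Both families encode GTP-hydrolysing proteins of cell-autonomous defence, and most of their genes are switched on by interferons through STAT and IRF transcription factors. GBP proteins assemble on pathogen membranes and on the vacuoles that hold parasites or bacteria, and they feed into inflammasome signalling. Of the IRG proteins, the products of Igtp, Irgm1 and Irgm2 sit on host membranes and hold the effector IRG proteins inactive there, while effectors such as those of Tgtp1, Tgtp2 and Iigp1 load onto the pathogen's vacuole.

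Total counts ran from 63217696 to 78456344 per library. Control 3 stood apart, with transcripts of other cell types. In CPM, read counts scaled to the TMM-adjusted library size, the macrophage gene Adgre1 stood at 25.1 there and at or below 0.059 elsewhere. The neuronal gene Tubb3 stood at 24.5 CPM there and at or below 0.554 CPM elsewhere. The macrophage gene Lyz2 stood at 153 CPM in control 3 and at or below 10.8 CPM elsewhere. Of the listed macrophage markers only Cd68, the most abundant of them, did not peak in control 3. Cd68 stood at 593, 577 and 754 CPM in the controls and at 854, 705 and 986 CPM in the other group.

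In cells with the miR-423-5p mimic 9 of the 10 genes fell and none rose (edgeR quasi-likelihood test, Benjamini-Hochberg adjusted p under 0.05 over all genes), by 1.43-fold for Gbp3 to 2.52-fold for Gbp5. Irgm1, 1.19-fold lower, did not pass. Over all 18103 genes tested, 7.21% fell and 9.09% rose by the same test. Every miR-423-5p library lay below every control library for all 10 genes, as it did for 19.6% of the tested genes. The median log2 fold change was -0.78 over the 10 genes, -0.82 over the 4 GBP genes and -0.78 over the 6 IRG genes, against -0.02 over all tested genes, of which 11.2% lay below the median of the 10. With total-count scaling, 2569 genes fell and 874 rose, against 1305 and 1646 in the main scaling, and all 10 GTPase genes fell. Leaving out 1 library changed the count of the 10 that fell. With control 1, control 2 or the third miR-423-5p library left out it was 5, since Gbp3, Gbp7, Irgm2 and Iigp1 no longer passed. It was 8 when control 3 was left out, 7 when miR-423-5p library 1 was and 10 when miR-423-5p library 2 was.

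**Figure D1:**
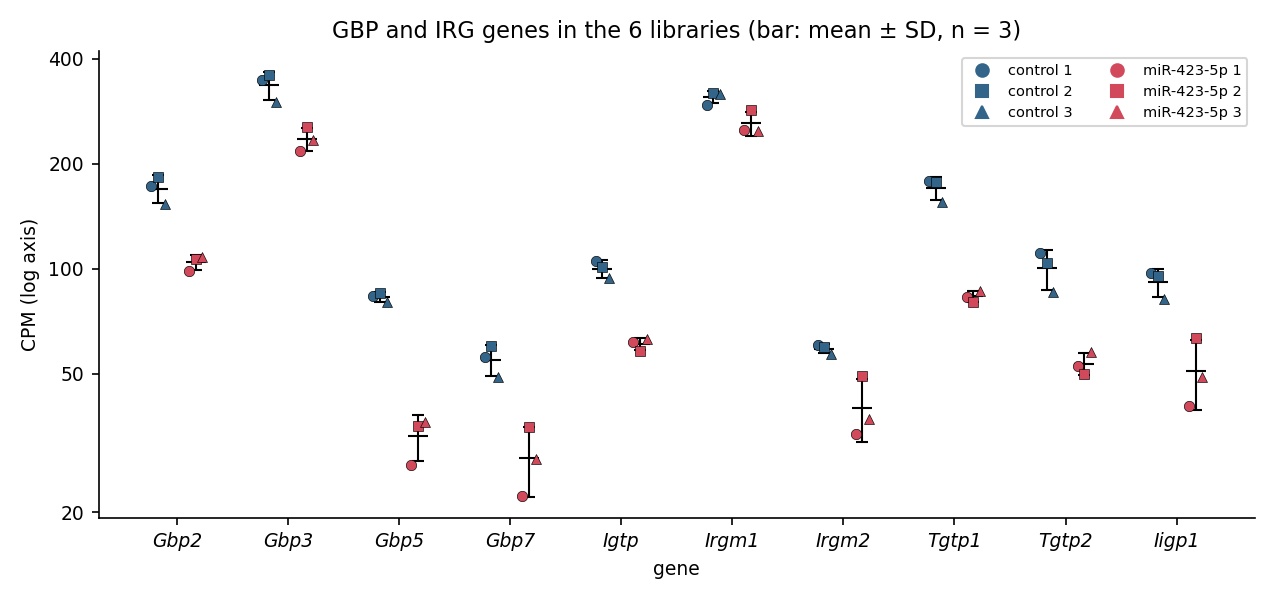
Normalised read counts (CPM, log axis) of the 10 genes in each of the 6 libraries, with the mean and SD of each group (n = 3); marker shape is the replicate number. Every miR-423-5p point lies below every control point of the same gene, with the narrowest gap at Irgm1.

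The 4 GBP genes lie together on chromosome 3 (GRCm38, coordinates of the table), all on the plus strand. Gbp5 lies at chr3:142493978-142522344, Gbp7 at chr3:142530342-142550149, Gbp3 at chr3:142560026-142573209 and Gbp2 at chr3:142620602-142638008. On chromosome 11, Irgm1 (chr11:48861968-48871683), Tgtp1 (chr11:48985327-48994172) and Tgtp2 (chr11:49057194-49064206) lie on the minus strand. Igtp (chr11:58199556-58207591) and Irgm2 (chr11:58199618-58222782) overlap on the plus strand. Iigp1 stands alone on chromosome 18, at chr18:60376027-60392634. All 10 are protein-coding and have the same position in GENCODE M21.

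Some of these genes share sequence, and reads from shared stretches cannot be assigned with certainty. Of the 150-base windows of the Tgtp1 transcript, 74.1% also occur in transcripts of other genes, 71.3% in Tgtp2. Of those of Tgtp2, 71.7% occur in Tgtp1. The share was 8.93% for Gbp7, all with the overlapping gene Gm43802, and 0.854% for Igtp, all with Irgm2. It was 0 for the other 6 genes. Windows were taken from the longest coding transcript of each gene and compared with all transcripts of other genes. The stretch that Irgm2 shares with Igtp lies in another Irgm2 transcript, so the value of 0 for Irgm2 covers its longest transcript only. The treatment of such reads in counting is not given in the sources used here. The separate values of Tgtp1 and Tgtp2 are uncertain.

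Levels between genes were compared per transcript length, in FPKM. The FPKM were used as deposited, and the TMM factors used for CPM were not applied to them. In the controls Gbp3 was highest (101.5 ± 6.88, SD, n = 3), followed by Gbp2 (66.7 ± 4.58), and Gbp7 was lowest (9.64 ± 0.779). Irgm1, Tgtp1 and Igtp followed Gbp2 at means of 53.0, 52.5 and 48.9 FPKM. The ranges of Irgm1 and Tgtp1 overlapped, as did those of Tgtp1 and Igtp. Irgm2 and Iigp1 overlapped as well, at 15.8 and 15.5 FPKM, above Gbp5 at 12.4 FPKM. In the miR-423-5p cells Gbp3 was again highest, at 63.0 ± 6.69 FPKM. Irgm1, at 39.3 FPKM, stood beside Gbp2 at 36.2 FPKM with overlapping ranges. Gbp5 went to the last place, at 4.34 ± 0.657 FPKM, overlapping Gbp7 at 4.47 ± 1.14 FPKM. Summed over the 10 genes, the level was 413, 426 and 391 FPKM in controls 1, 2 and 3. It was 216, 250 and 221 FPKM in miR-423-5p libraries 1, 2 and 3. With TMM scaling the groups lay closer, at 1508, 1543 and 1374 CPM in the controls and 887, 1017 and 948 CPM in the miR-423-5p libraries.

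Gbp5, whose protein in mice promotes assembly of the NLRP3 inflammasome, showed the largest difference of the 10. It stood at 83.7, 85.4 and 80.3 CPM in controls 1, 2 and 3 and at 27.3, 35.3 and 36.4 CPM in miR-423-5p libraries 1, 2 and 3. The controls lay close together, and the lowest value was in miR-423-5p library 1. Gbp5 had a log2 fold change of -1.33 ± 0.117 (SE).

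Gbp7, the next gene along the chromosome, stood at 55.7, 59.8 and 48.8 CPM in the controls and at 22.3, 35.3 and 28.5 CPM in the miR-423-5p libraries. The miR-423-5p libraries spread widely, with library 2 the highest. For Gbp7 the log2 fold change was -0.93 ± 0.169 (SE). In a bulk measurement such as this, fewer cells that express a gene and less RNA per cell cannot be told apart.

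Gbp2, whose protein is recruited to the vacuole of Toxoplasma, stood at 172.7, 183.4 and 153.3 CPM in the controls and at 98.4, 106.7 and 107.9 CPM in the miR-423-5p libraries. Control 3 was the lowest control, and the miR-423-5p libraries lay within a narrow range. Gbp2 had a log2 fold change of -0.70 ± 0.089 (SE). Gbp3, the most abundant of the 10 per length, stood at 347.8, 358.3 and 300.1 CPM in the controls and at 218.0, 254.0 and 234.3 CPM in the miR-423-5p libraries. Control 3 was again the lowest control and library 2 the highest of the miR-423-5p group. The log2 fold change of Gbp3 was -0.51 ± 0.098 (SE), the smallest of the 4 GBP genes.

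Of the effector IRG genes, Tgtp1 stood at 178.4, 177.4 and 155.2 CPM in the controls and at 83.1, 80.1 and 86.5 CPM in the miR-423-5p libraries. Its near copy Tgtp2 stood at 111.3, 104.0 and 85.6 CPM in the controls and at 52.6, 50.0 and 57.5 CPM in the miR-423-5p libraries. In both genes control 3 was the lowest control, and miR-423-5p library 2 was the lowest of its group. The log2 fold changes were -1.03 ± 0.082 (SE) for Tgtp1 and -0.91 ± 0.112 (SE) for Tgtp2. Since the genes share most of their windows, the fold changes are not separate measurements.

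Iigp1, an effector that disrupts the vacuole membrane, stood at 97.4, 95.4 and 81.9 CPM in the controls and at 40.5, 63.4 and 49.0 CPM in the miR-423-5p libraries. The highest miR-423-5p value, in library 2, was below the lowest control. Iigp1 had a log2 fold change of -0.85 ± 0.161 (SE).

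The regulatory genes differed in size of change. Igtp stood at 105.1, 101.0 and 93.8 CPM in the controls and at 61.8, 58.1 and 62.8 CPM in the miR-423-5p libraries, tight within each group. Its log2 fold change was -0.72 ± 0.076 (SE). Irgm2 stood at 60.4, 59.7 and 56.9 CPM in the controls and at 33.5, 49.2 and 37.1 CPM in the miR-423-5p libraries. Library 2 alone came near the controls. The log2 fold change of Irgm2 was -0.56 ± 0.141 (SE). Igtp and Irgm2 overlap in the annotation, so their counts carry some uncertainty.

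Irgm1 is the best known regulator of the family, needed by mice for resistance to intracellular bacteria. It stood at 295.6, 318.5 and 317.8 CPM in the controls and at 249.8, 285.0 and 248.4 CPM in the miR-423-5p libraries. Library 2 lay just below control 1, the lowest control, while libraries 1 and 3 lay close together. The log2 fold change was -0.25 ± 0.084 (SE), and the gene was not called. With total-count scaling, a filter of 1 CPM in 3 libraries, FPKM in place of counts with low values filtered, or with miR-423-5p library 2 left out, it was called lower.

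MiR-423-5p library 2 set some of these genes apart from others. For Tgtp2, Igtp and Tgtp1 it stood at 0.909, 0.932 and 0.945 of the mean of libraries 1 and 3, and for Gbp2 at 1.03. For Gbp7, Irgm2 and Iigp1 it stood at 1.39, 1.39 and 1.42 of that mean. Over all tested genes the median of this ratio was 0.989, and 12.5% of genes had a ratio at or above that of Gbp7. A high ratio was not particular to these genes, as it was 1.45 for Gm12250, 1.60 for Gbp10 and 1.91 for 9930111J21Rik2. Among the other tested genes of the GBP and IRG lists only Gbp11 and Gm4841 had a ratio below 1, at 0.474 and 0.810. As a share of the control mean, Irgm2 stood at 56.9%, 83.3% and 63.0% in libraries 1, 2 and 3, and Tgtp1 at 48.8%, 47.0% and 50.8%. The ratio describes 1 library and was not tested.

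**Figure D2:**
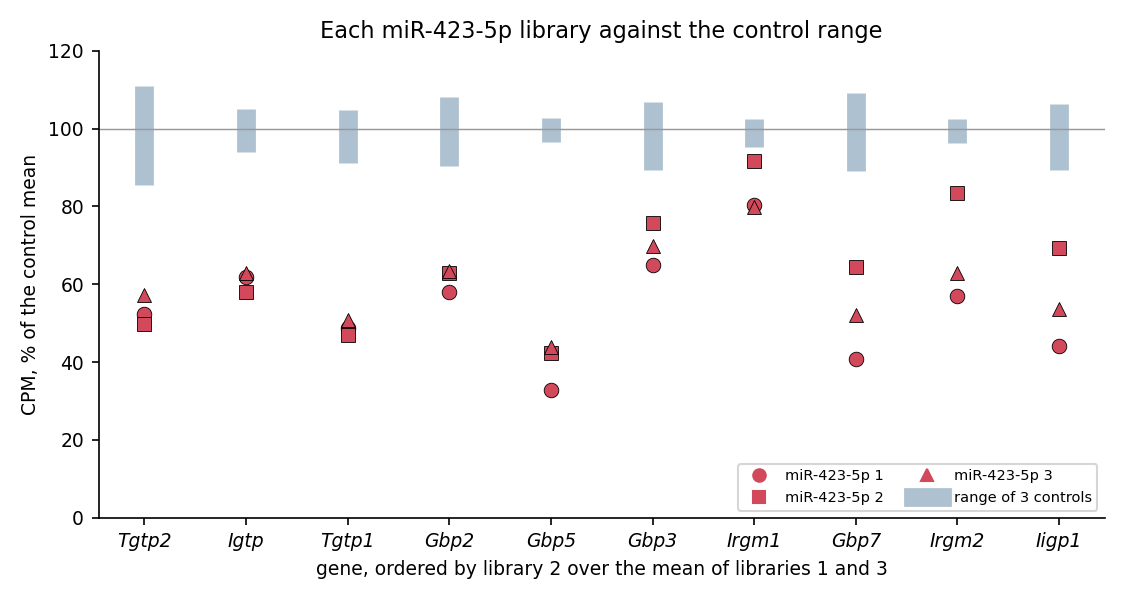
CPM of each miR-423-5p library as a percentage of the control mean, for the 10 genes ordered by library 2 over the mean of libraries 1 and 3; bars give the range of the 3 controls. Library 2 (squares) lies below the others for Tgtp2, Igtp and Tgtp1 and well above them for Gbp7, Irgm2 and Iigp1.

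The promoters of 9 of the 10 genes, all but Iigp1, were looked at, since interferon-induced transcription acts there. IRF factors bind repeats of GAAA, and STAT dimers bind a palindrome called a GAS element. Promoter sequences are from RefSeq (GRCm38.p6), from 250 bases before to 50 bases after each start. The repeat was searched as GAAANNGAAA and the GAS element as TTCNNNGAA, both on either strand. Each window below reads 5′ to 3′ on the strand that carries the repeat, with matches to the repeat and to the GAS element in capitals. The GBP windows come first, then those of the IRG genes, to show how the matches are arranged.
Gbp5, chr3:142496749-142496798, minus strand: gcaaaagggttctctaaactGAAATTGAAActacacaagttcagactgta
Gbp7, chr3:142530263-142530312, minus strand: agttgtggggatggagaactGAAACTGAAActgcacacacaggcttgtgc
Gbp3, chr3:142559985-142560034, minus strand: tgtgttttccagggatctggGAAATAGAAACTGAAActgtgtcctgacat
Gbp2, chr3:142620584-142620633, minus strand: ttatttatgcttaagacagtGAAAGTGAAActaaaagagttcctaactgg
Irgm1, chr11:48871421-48871464, minus strand: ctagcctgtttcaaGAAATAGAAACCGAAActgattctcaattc
Tgtp1, chr11:48992294-48992343, minus strand: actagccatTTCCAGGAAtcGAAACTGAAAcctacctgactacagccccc
Tgtp2, chr11:49064253-49064302, minus strand: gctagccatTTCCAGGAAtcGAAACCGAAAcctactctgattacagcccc
Igtp, chr11:58199502-58199551, plus strand: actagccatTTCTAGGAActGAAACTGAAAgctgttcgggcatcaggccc
Irgm2, chr11:58214893-58214942, plus strand: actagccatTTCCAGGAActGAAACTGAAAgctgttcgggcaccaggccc

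The repeat was found in a promoter of all 9 genes, 15 to 156 bases before the start. Of all 27025 genes with a promoter in the table, 3.99% hold it in any promoter, and of all 32851 promoters of the same length 3.44% do. In Gbp3 and Irgm1 there are overlapping repeats. A second Gbp3 promoter, with a start further along, held no match to either motif. A GAS match was found in 6 of the 9 genes, against 9.55% of all genes and 8.30% of all promoters. In Tgtp1, Tgtp2, Igtp and Irgm2 it ends within 5 bases of the repeat, as the windows show. In Gbp5 and Gbp7 the GAS matches lie outside the windows printed. No GAS match overlapped a repeat. Irgm1, which was not called, holds the repeat, as do the called genes whose promoters were searched. Of 444 other tested genes with the repeat, 60 (13.5%) fell and 34 (7.66%) rose, against 970 (8.15%) and 1226 (10.3%) of all 11905 tested genes with a promoter in the table, both without the genes described here. A match describes the letters only, and binding was not measured.

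**Figure D3:**
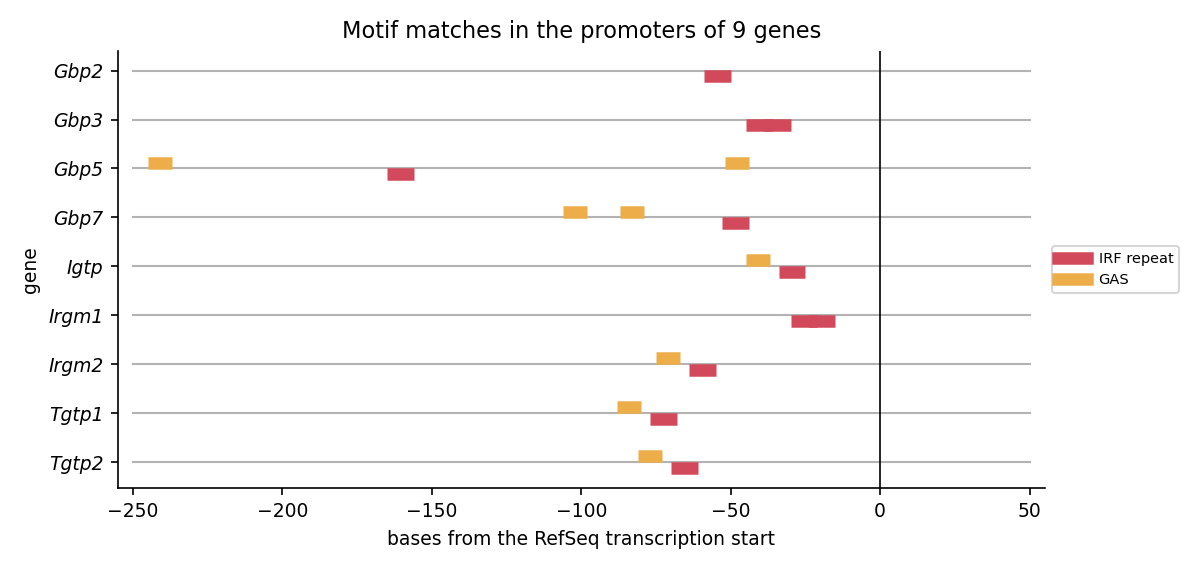
Matches to the GAAA repeat (IRF repeat) and to the GAS element in the promoters of 9 genes, drawn to scale in bases from the RefSeq start. The repeat lies 15 to 156 bases before the start in all 9, with a GAS match beside it in Igtp, Irgm2, Tgtp1 and Tgtp2.

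MicroRNAs pair through their seed, bases 2 to 8, with sites mostly in 3′ UTRs. The mature sequence is shown because the seed decides which sites were searched, and the seed is in capitals (RefSeq, GRCm38.p6, chr11:77078122-77078144, minus strand).
miR-423-5p: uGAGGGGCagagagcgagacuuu

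Of the 10 GTPase genes none had an 8mer match to this seed in the longest annotated 3′ UTR. A 7mer match was found in 1 of them, Iigp1. Of the 13920 tested genes with an annotated 3′ UTR, 4.22% had an 8mer and 21.7% an 8mer or a 7mer. The 7 other GBP genes with a 3′ UTR had no match of either kind. Of 9 genes of the other IRG list with a 3′ UTR, 2 had a match, Gm4951 with a 7mer and Irgq, which was not called, with 2 8mers. Of 16 genes of interferon receptors and signalling, 6 had a match and 1, the type I interferon receptor gene Ifnar1, had an 8mer. Of the other 5, Irf8, with a 7mer, rose, and Ifngr2, Ifnar2, Irf5 and Irf7 were not called. A seed match describes the letters only, and targeting by the microRNA was not measured.

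The Ifnar1 site is shown as the single 8mer among the signalling genes, with the 8mer in capitals (GRCm38.p6, chr16:91505602-91505631, plus strand).
Ifnar1 site: atcctgccgtaGCCCCTCAgtgtgtcacag

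Upstream of the GTPase genes, interferon ligands were low. Ifnb1, which encodes interferon beta, stood at 3.60, 2.98 and 2.84 CPM in the controls and at 0.759, 0.264 and 0.558 CPM in the miR-423-5p libraries. The groups were far apart, and Ifnb1 fell 5.95-fold (log2 fold change -2.57 ± 0.39, SE; edgeR adjusted p = 0.00589). Ifna4, an interferon alpha gene, was at 0.288 to 0.31 CPM in the controls, and miR-423-5p libraries 1 and 3 had no count of it. It fell in the fit of all 6 libraries, but the call was lost when any library other than miR-423-5p library 2 was left out. Ifng, which encodes interferon gamma, had counts in control 2 only, at 0.041 CPM. Of the listed markers of T and NK cells, which make interferon gamma, only 3 were in the data, Cd3g, Cd4 and Nkg7. These summed to at most 0.143 CPM in any library.

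Of 16 genes of interferon receptors and JAK-STAT-IRF signalling, 2 fell and 1 rose, with a median log2 fold change of 0.03. Over all tested genes 7.21% fell and 9.09% rose, so these counts do not set the list apart. Ifnar1 stood at 56.3, 57.0 and 57.0 CPM in the controls and at 35.0, 37.8 and 36.9 CPM in the miR-423-5p libraries, and fell 1.55-fold (edgeR adjusted p = 0.00246). Irf1, a transcription factor gene needed for induction of many GBP genes, fell 1.48-fold (edgeR adjusted p = 0.00519). Irf8, a partner of IRF1, rose 1.98-fold (edgeR adjusted p = 0.00368). The interferon gamma receptor genes Ifngr1 and Ifngr2 and the kinase gene Jak2 were not called, with log2 fold changes of -0.12 ± 0.097, 0.08 ± 0.077 and 0.06 ± 0.136 (SE). Of 8 inhibitors of the pathway 1 fell, the deISGylase gene Usp18, by 1.27-fold (edgeR adjusted p = 0.0303), and the call was lost when any single library other than miR-423-5p library 2 was left out.

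**Figure D4:**
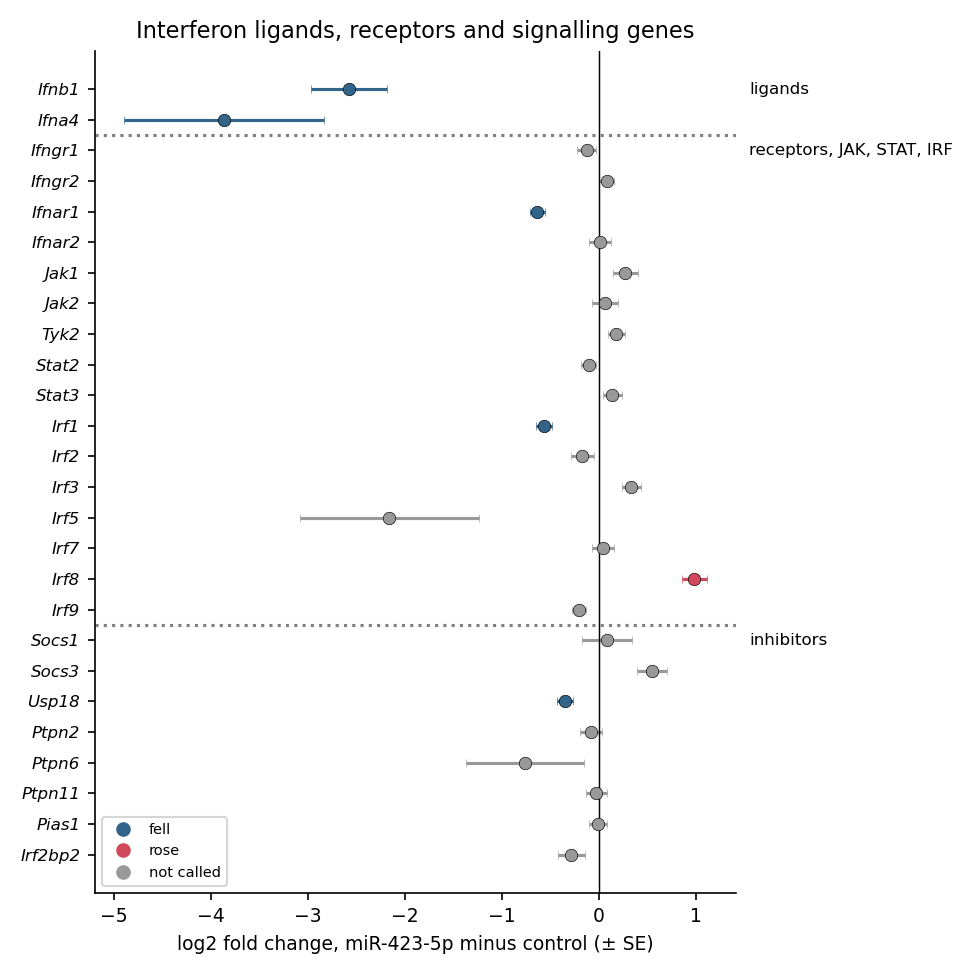
Log2 fold change (miR-423-5p minus control, with SE) of the tested interferon ligand, receptor, signalling and inhibitor genes; blue fell, red rose and grey was not called. Ifnb1 and Ifna4 lie farthest to the left, and Ifnar1 and Irf1 are the signalling genes that fell.

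Other genes of the GBP and IRG lists gave mixed results, and close paralogues among them may share reads. Of 7 other GBP genes, 2 fell and 5 were not called, with a median log2 fold change of -0.66. Over all tested genes 7.21% fell. Gbp6 fell 1.76-fold (edgeR adjusted p = 0.00326) and Gbp4 1.58-fold (edgeR adjusted p = 0.0279). In 6 of the 7 every miR-423-5p library lay below every control, as in 19.6% of all tested genes. Of these 6, Gbp9 (-0.47 ± 0.137), Gbp10 (-0.84 ± 0.264), Gbp11 (-1.60 ± 0.471) and Gbp8 (-0.38) were not called. Gbp2b, at most 0.528 CPM, had a log2 fold change of 0.55. Gbp4 lost its call when control 1, control 2 or miR-423-5p library 1 or 3 was left out. With library 2 of that group left out, 4 of the other GBP genes fell, and with total-count scaling 5 did.

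The list of other IRG-type genes, which is not complete, held 11 genes of the data, of which 10 were tested. Of these 2 fell, Gm12250 by 4.18-fold (edgeR adjusted p = 0.00191) and Gm4951 by 2.01-fold (edgeR adjusted p = 0.00876). No other gene of the list was called, and over all tested genes 7.21% fell. Ifi47, an IRG gene that the list had left out, was 1.68-fold lower. It was found through the likeness of its profile to the called GTPases, so its fall followed from that choice and is a description only. Gm12250 stood at 6.65, 5.36 and 5.77 CPM in the controls and at 1.29, 1.78 and 1.17 CPM in the miR-423-5p libraries. Irgq, a member without a known interferon response, had a log2 fold change of 0.14 ± 0.086 (SE). The large GTPase gene Gvin1 was not called, with a log2 fold change of -0.20. It stood at 448, 751 and 559 CPM in miR-423-5p libraries 1, 2 and 3, against 643 to 706 CPM in the controls. Gvin1 and Gm4070, both on the list, encode very large inducible GTPases, a family apart from the IRG genes. Their counts were close, 43614 and 44607 in control 1, so they may not be separate measurements. With miR-423-5p library 2 left out, 6 of the 10 tested genes of the list fell.

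**Figure D5:**
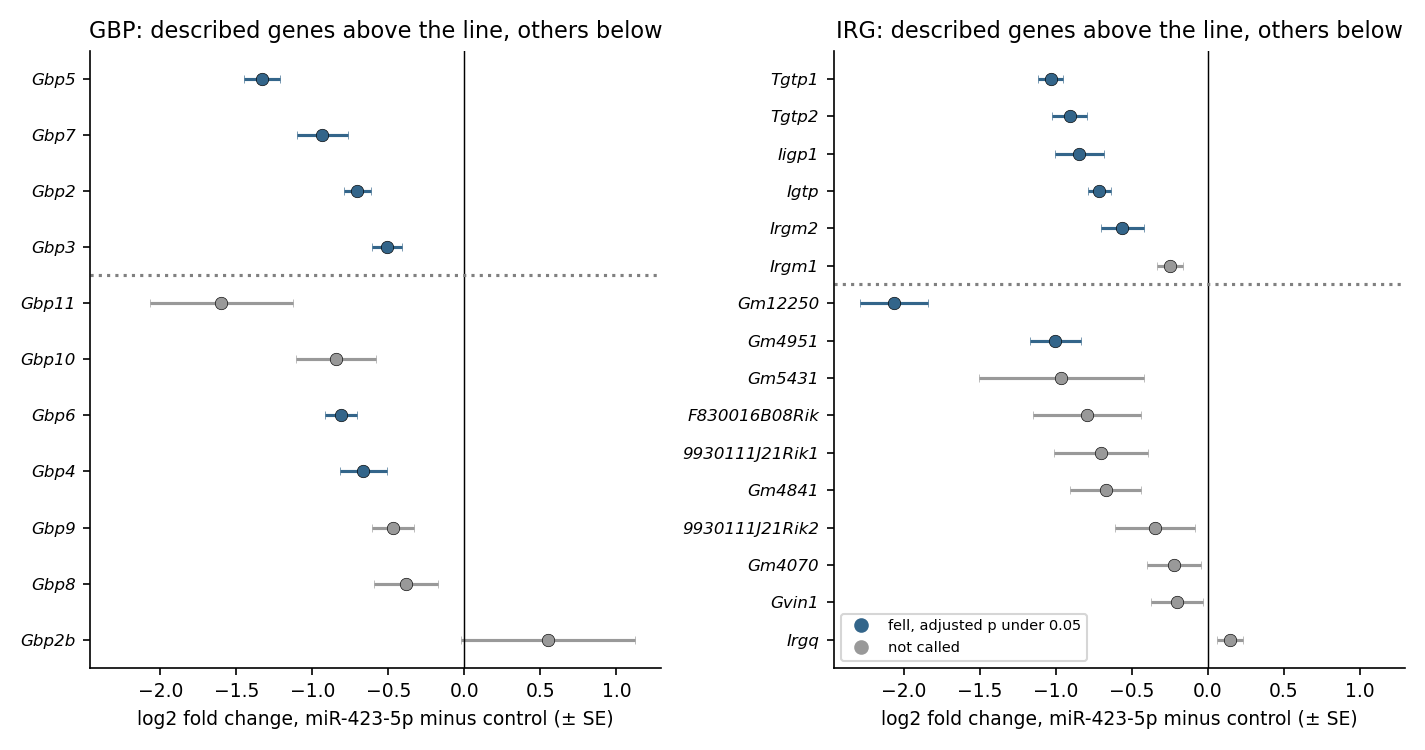
Log2 fold change (miR-423-5p minus control, with SE) of GBP genes (left) and of IRG genes with Gvin1 and Gm4070 (right). The 10 described genes lie above the dotted line and the other tested genes of the GBP and IRG lists below it. Ifi47 is not plotted. Among the listed others Gbp6, Gbp4, Gm12250 and Gm4951 fell, while the rest were not called.

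Genes that interferons induce alongside the GTPases fell in part. Of 20 antiviral interferon-stimulated genes, 14 fell and none rose, with a median log2 fold change of -0.53. Cmpk2, a nucleotide kinase gene, fell 2.38-fold, Mx2 2.01-fold and Ifit1 1.77-fold (edgeR adjusted p = 0.0015, 0.00109 and 0.00177). With a single library left out the count was 7 (control 1 or 2), 8 (miR-423-5p library 1 or 3) or 10 (control 3). Of 10 tested gamma-interferon targets 5 fell, among them the chemokine gene Cxcl10 by 3.13-fold (edgeR adjusted p = 0.000457) and the peptide transporter gene Tap1 by 1.46-fold (edgeR adjusted p = 0.0114). That count became 1 (control 1 left out), 2 (control 2 or miR-423-5p library 3) or 3 (miR-423-5p library 1). The autophagy conjugation machinery helps IRG and GBP proteins to load onto vacuoles. Of its 11 genes 3 rose, Atg7, Gabarap and Map1lc3b, by 1.47, 1.43 and 1.40-fold, and none fell, whereas with total-count scaling 2 rose and 2 fell. Of these, only Atg7 was called when control 1, control 2 or miR-423-5p library 1 or 3 was left out. Of 10 tested inflammasome and ubiquitin partners of GBP and IRG proteins, 1 rose, 1 fell and 8 were not called. Their median log2 fold change was 0.007, and over all tested genes 9.09% rose and 7.21% fell. Gsdmd, the pore-forming effector of the inflammasome, rose 1.60-fold (edgeR adjusted p = 0.00378), and the ubiquitin ligase gene Trim21 fell 1.64-fold (edgeR adjusted p = 0.0108). Trim21 lost its call when control 1, control 2 or miR-423-5p library 3 was left out.

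By the profile over the 6 libraries, the genes outside the family lists most like the mean of the 9 called GTPases were Ifit1, Fam53c, F730043M19Rik, Ifi47 and Oxsr1. The measure was the root mean square difference of centred log2 CPM, over 7375 genes, and ran from 0.064 for Ifit1 to 0.081 for Oxsr1. The called GTPases themselves lay farther from their mean, from 0.087 for Gbp2 to 0.261 for Gbp5. A small difference requires a fall like theirs, so the falls of the genes named here follow from that choice. Ifi47 is the IRG gene that the lists had left out.

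Control 3, which held macrophage and neuronal transcripts, was the lowest control for 9 of the 10 GTPases, the exception being Irgm1. Its part in the results was not tested, and without it 8 of the 10 fell. Endothelial markers were present in all libraries, except that Cldn5 stood below 1 CPM, and 9 of 11 rose, against 9.09% of all tested genes. Of 9 fibroblast and pericyte markers, 5 fell, against 7.21% of all tested genes. The summed level of the 9 was 70.1 to 153 CPM in the controls and 18.6 to 24.9 CPM in the miR-423-5p libraries. Most of that sum in the controls came from the collagen genes Col1a1 and Col1a2, which fell. Pdgfra and Pdgfrb were not called, each with a log2 fold change of -0.31. Whether a change in cell make-up bears on the GTPases was not tested.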

How the data were processed

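For every gene and library the authors deposited a count of reads and an FPKM value, per the file headers. Polyadenylated RNA was prepared with dUTP second strands and sequenced in pairs, per the labels' protocols. Cutadapt 1.9, HISAT2 2.2.1, StringTie 2.1.6, DESeq2, edgeR and GRCm38 are named, per the submitters' processing notes. Information on their roles, counting and strand settings is not given in the sources used here.

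The test was edgeR's quasi-likelihood test on those counts (version 4.0.16 under R 4.3.3, with TMM factors, genes kept by filterByExpr, and group as the only term), with Benjamini-Hochberg adjustment over 18103 genes and a threshold of 0.05. CPM are deposited counts divided by the TMM-adjusted library size. SE is the log2 fold change over the square root of F. Promoters, seed sites and shared windows were searched with Python 3.11.15. The edgeR step was run on simulated counts, and the sequence searches were not tested in this way. Alternatives used DESeq2 1.42.0, limma 3.58.1 on log2(FPKM + 1, 0.1 or 5), other scalings and filters, a replicate block, each library left out, and summed Tgtp1 and Tgtp2. Igtp and Irgm2 were summed as an alternative chosen after seeing the data. Libraries of a group differed by more than sampling noise (chi-square per degree of freedom 18.2 to 101).

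The genes and gene lists were chosen with earlier results of these data known. The text names the 10 genes, the measured members of the other GBP and IRG lists, up to 4 genes per other list by smallest p with Irf1, Jak2, Ifngr1, Ifngr2, Ifng and Ifnb1, the most abundant defining markers, and the 5 genes of most similar profile. Not every gene the rule selects is described, and 1 gene of the signalling list is not reported here. Cldn5 was singled out after its values were seen.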

Additional observations from a re-analysis of the deposited data

How the results depend on the processing

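Over 18 alternatives each, the log2 fold changes of the 10 GTPase genes kept their direction in all 180 cases. They ran from -1.50 to -0.90 for Gbp5 and from -0.43 to -0.19 for Irgm1. In 157 cases the side of the threshold was unchanged, in 17 a call was lost, and the other 6 added a call of Irgm1. Irgm2 was not called in 7 alternatives, Gbp3 in 4, Gbp7 and Iigp1 in 3 each. With any single library left out, 5 to 10 of the GTPase genes fell and 942 to 4222 of all genes were called, against 2951. Without a filter 1852 genes were called, and with limma on unfiltered FPKM 1886. Total-count scaling moved the median of all genes to -0.18, and all 10 GTPase genes were called lower. With a replicate block 9 of the 10 fell, as without it. Same-numbered libraries deviated together with r of 0.187, 0.077 and 0.183, so the numbers do not establish pairs. Among the lists, limma on filtered FPKM called 4 other GBP genes, 5 signalling genes, 2 inhibitors and 2 inflammasome or ubiquitin partners lower, against 2, 2, 1 and 1 with edgeR, and gave 1 autophagy gene higher and 3 lower, against 3 and 0. DESeq2 called 5 other GBP genes lower, and the filter of 1 CPM called 4. Without a filter 1 other GBP gene, no inhibitor and 9 of 20 antiviral genes fell with edgeR, against 2, 1 and 14. Of the ligands only Ifnb1 was called without a filter or with the replicate block. Summing Tgtp1 with Tgtp2, or Igtp with Irgm2, gave 8 of the resulting 9 genes called lower. The causes were not tested. With 3 libraries a group and 1 cell line, small differences such as that of Irgm1 sit at the limit of what the test separates, and shared reads limit Tgtp1 and Tgtp2.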
